A study of Mus musculus with 12 samples.

Results

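A set of 10 genes that mark amacrine and horizontal cells was followed in newborn mouse retinas with and without Ezh2 in the Math5 lineage. They are Ptf1a, Tfap2a, Tfap2b, Barhl2, Prox1, Lhx1, Gad1, Gad2, Slc32a1 and Slc6a9. They were taken by name, and all 10 were among the 38720 genes listed for each of the 2 cell fractions. All 10 had enough reads to be tested in both fractions.

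The mKO mice carried Cre under the control of Math5 (Atoh7), together with 2 floxed Ezh2 alleles from which Cre removes the exons encoding the catalytic SET domain. The controls are labelled wild type (WT); the study's methods name littermates with floxed Ezh2 and no Cre as controls unless stated otherwise, so the controls may carry the floxed alleles too. All samples are labelled as C57/BL6 mice at P0, the day of birth. Math5 is switched on transiently, marks only a part of the retinal lineages, and its Cre reaches only a part of the RGCs, so that both genotypes held cells with intact Ezh2. Retinal ganglion cells (RGCs) were pulled out of dissociated retinas with magnetic beads that bind CD90 (Thy-1), and the cells left behind are called non-RGCs. Each genotype and fraction had 3 libraries from independent RNA extractions, 12 in all. Whether an extraction held 1 animal or a pool is not given in the sources used here, so the spread between libraries may be technical in part, and the p-values measure only that spread.

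Ezh2 is the methyltransferase of the polycomb repressive complex, which marks histone H3 for silencing and keeps developmental genes off in cells where they do not belong. Amacrine and horizontal cells are the inhibitory interneurons of the retina, born from the same progenitors as RGCs and largely present at birth. Ptf1a, a basic helix-loop-helix factor, commits progenitors to both fates, and Tfap2a and Tfap2b act downstream of it. Barhl2 is a homeobox factor of amacrine cells and also of RGC subsets. Prox1 and Lhx1 are needed in horizontal cells, and Prox1 is also found in progenitors and in AII amacrine cells. Gad1 and Gad2 make GABA, Slc32a1 (VGAT) loads GABA and glycine into synaptic vesicles, and Slc6a9 (GlyT1) takes glycine back up from outside the cell.

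The start regions of the 4 genes with the largest differences between genotypes in RGCs are shown as a description. These 4 were chosen by the size of that difference, and whether they share a regulator was not tested. RefSeq start sites on GRCm38.p6 were taken with 250 bases before and 50 after each start. Capitals mark the E-box letters CANNTG, which basic helix-loop-helix factors such as Ptf1a can bind, and the letters TGGGAA or its reverse TTCCCA, which RBPJ, the partner of Ptf1a, can bind. The Slc6a9 window lies at chr4:117835008-117835307 on the plus strand, that of Slc32a1 at chr2:158610508-158610807 on the plus strand, that of Barhl2 at chr5:106458117-106458416 on the minus strand, and the Tfap2a window shown at chr13:40733746-40734045 on the minus strand.
Slc6a9: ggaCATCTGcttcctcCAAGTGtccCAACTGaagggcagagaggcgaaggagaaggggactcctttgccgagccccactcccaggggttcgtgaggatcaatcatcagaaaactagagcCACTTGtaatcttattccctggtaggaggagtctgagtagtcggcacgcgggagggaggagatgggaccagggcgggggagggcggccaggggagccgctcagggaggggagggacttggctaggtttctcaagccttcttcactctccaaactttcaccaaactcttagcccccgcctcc
Slc32a1: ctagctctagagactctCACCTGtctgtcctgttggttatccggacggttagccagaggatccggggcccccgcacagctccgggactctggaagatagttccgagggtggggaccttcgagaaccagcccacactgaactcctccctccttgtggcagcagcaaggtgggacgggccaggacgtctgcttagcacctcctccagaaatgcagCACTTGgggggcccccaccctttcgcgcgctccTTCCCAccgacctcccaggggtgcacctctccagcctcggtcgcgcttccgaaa
Barhl2: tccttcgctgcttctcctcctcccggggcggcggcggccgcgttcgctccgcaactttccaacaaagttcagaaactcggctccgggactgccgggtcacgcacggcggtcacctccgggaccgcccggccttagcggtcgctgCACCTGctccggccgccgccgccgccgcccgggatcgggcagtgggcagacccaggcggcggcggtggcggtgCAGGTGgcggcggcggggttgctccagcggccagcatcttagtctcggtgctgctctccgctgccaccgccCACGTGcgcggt
Tfap2a: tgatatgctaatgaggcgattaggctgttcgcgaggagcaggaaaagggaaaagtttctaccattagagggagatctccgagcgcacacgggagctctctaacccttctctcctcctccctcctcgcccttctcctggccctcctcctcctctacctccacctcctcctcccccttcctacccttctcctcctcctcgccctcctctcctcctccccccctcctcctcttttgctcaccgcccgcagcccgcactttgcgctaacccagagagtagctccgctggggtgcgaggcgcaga
The Slc6a9 window held 4 E-boxes, Barhl2 3, Slc32a1 2 and this Tfap2a window 0. Slc32a1 also held 1 RBPJ match. All 10 genes were matched, with 14 start windows between them, because Slc6a9 has 3 windows and Tfap2a and Prox1 have 2 each. The other Slc6a9 windows held 0 E-boxes. Of the 14 windows, 7 held an E-box, against 72.3% of all 32841 RefSeq windows in the mouse, and 4 held an RBPJ match, against 25.6%. The AP-2 letters GCCNNNGGC, which Tfap2a and Tfap2b can bind, were found in the Ptf1a and Gad2 windows only, 2 of 14, against 16.6% of all windows. All motifs were searched on both strands, and a match in these letters is a description, not a binding site. The Barhl2 window was the richest in CpG dinucleotides, with 42 against a median of 7 over all windows.

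The reads of each library were worked back from the deposited group means, and library A is the one with the most reads in its group, C the one with the fewest. Reads on genes ran from 7139633 in library C of mKO non-RGCs to 13014004 in library A of mKO RGCs. Thy1, the gene of the captured antigen, had 1892 to 2362 reads in WT RGCs and 1511 to 1633 in mKO RGCs. In WT non-RGCs it had only 2 to 9 reads, but in mKO non-RGCs it had 66 to 87. Ezh2 itself did not separate the genotypes when reads were counted over the whole gene, with a log2 difference of 0.09 in RGCs and 0.13 in non-RGCs (limma, adjusted p = 0.637 and 0.584). Only a part of the gene is deleted, in only a part of the cells, so this count does not check the labels. Library C of WT RGCs stood apart from its group: the summed level of 10 progenitor genes was 1812 RPM there (reads per 1000000 reads on genes), against 1097 and 1166 in libraries A and B, and that of 12 photoreceptor genes was 970, against 673 and 672. The 10 amacrine and horizontal cell genes summed to 798 RPM in that library and to 682 and 718 in the other 2. In bulk RNA, fewer cells of a type and less RNA per cell cannot be told apart.

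**Figure D1:**
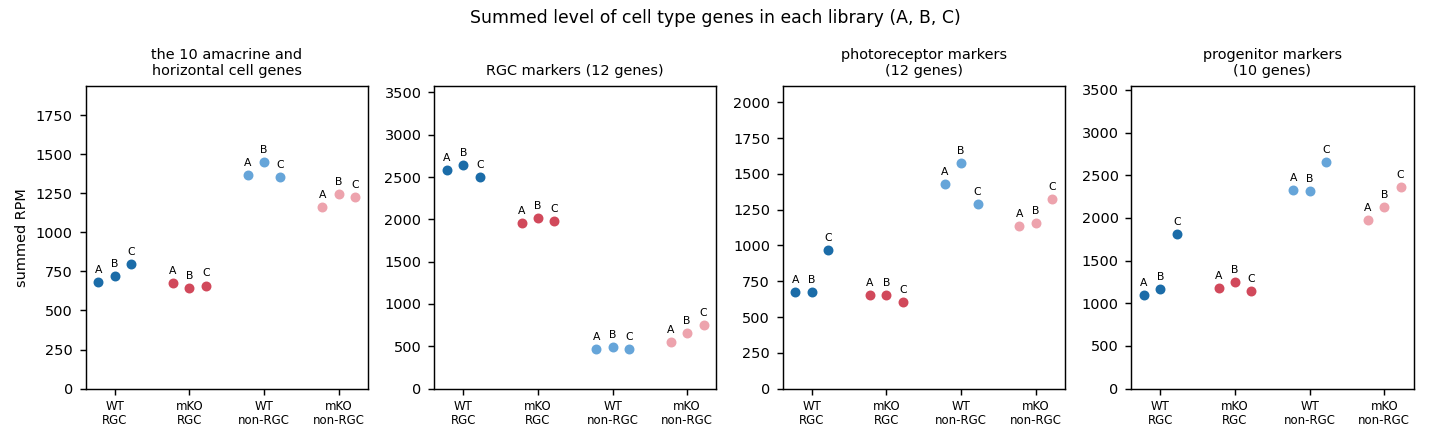
Summed RPM (vertical axes, each from 0) of the 10 amacrine and horizontal cell genes, 12 RGC markers, 12 photoreceptor markers and 10 progenitor markers in each of the 12 libraries (points, lettered A to C within a group). The 10 genes were at 682 to 798 in WT RGCs and at 1354 to 1452 in WT non-RGCs, and library C of WT RGCs was high for photoreceptor and progenitor genes.

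In RGCs, 5 of the 10 genes were lower in mKO mice and none was higher: Slc32a1, Slc6a9, Barhl2, Tfap2a and Tfap2b. The 2 transporters fell the most, to 0.544 and 0.552 of their WT level. The other 5, Ptf1a, Gad1, Gad2, Prox1 and Lhx1, did not pass the test. Genes were tested with limma on log2(normalised reads + 1), allowing the variance to follow the level, and called at a Benjamini-Hochberg adjusted p under 0.05, where normalised reads are reads divided by the authors' size factor of the library. The same test called 37.5% of the 16085 genes in either direction, 21.2% lower and 16.3% higher in mKO RGCs, and the members' count is to be read against that. The 10 genes had a median log2 fold change of -0.31, against -0.0024 over all genes tested. Every mKO library was below every WT library for 6 of the 10 genes, and for 28.2% of all genes tested.

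Slc6a9, the glycine transporter, lies at chr4:117834506-117875198 (GRCm38, plus strand). It had 214, 204 and 231 normalised reads in mKO RGCs and 416, 379 and 383 in WT RGCs. The genotypes did not overlap, and the gap between them was larger than the spread within either. The log2 fold change was -0.86 (SE 0.0938), with an adjusted p of 0.000946. Slc6a9 shares 1429 exon bases, 27.8% of its exon length, with Ccdc24 on the opposite strand. Whether the counting used strand is not given in the sources used here. Ccdc24 had 50 to 94 reads in WT RGCs and 102 to 112 in mKO RGCs. B4galt2, also on the opposite strand, shares 46 exon bases (0.895%) with Slc6a9 and had 1791 to 2053 reads in WT RGCs and 1476 to 1538 in mKO RGCs. The part of either gene in the Slc6a9 values was not tested.

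Slc32a1, the vesicular transporter, lies at chr2:158610767-158615748 on the plus strand. Its normalised reads were 282, 290.4 and 299 in mKO RGCs and 475, 522 and 615 in WT RGCs. The 3 mKO libraries lay close together, and all 3 were far below the lowest WT library. Its log2 fold change was -0.88 (SE 0.108), with an adjusted p of 0.00133. Its exons overlap those of Gm14205 on the other strand, which had at most 3 reads in any library.

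Among the transcription factors, Barhl2 (chr5:106452523-106458166, minus strand) differed most in RGCs. It had 1167, 1249 and 1281 normalised reads in mKO RGCs against 1928, 1933 and 1721 in WT RGCs, a 1.51-fold difference (log2 fold change -0.59, SE 0.0684, adjusted p = 0.00108). The groups stood well apart, and unlike the other members its lowest WT value was in library C. Tfap2a (chr13:40715302-40738376, minus strand) had 762, 769.9 and 725 normalised reads in mKO RGCs and 961, 1004 and 1223 in WT RGCs, and its log2 fold change was -0.49 (SE 0.0969, adjusted p = 0.00788). Library C gave the highest WT value, but libraries A and B were also above all 3 mKO libraries. Its relative Tfap2b (chr1:19208914-19238576, plus strand) had 2354, 2234 and 2223 against 2411, 2827 and 2873. The genotypes were separated by only a small gap, and the log2 fold change of -0.25 (SE 0.0774) only just passed, with an adjusted p of 0.0420. Tfap2b lost its call without library B of WT RGCs (adjusted p = 0.113) and when any mKO RGC library was left out (adjusted p between 0.0809 and 0.130).

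Ptf1a, the factor upstream of this program (chr2:19445663-19447501, plus strand), had 112, 127 and 98.8 normalised reads in mKO RGCs. In WT RGCs it had 116 and 127 in libraries A and B and 212 in library C. Without library C the genotypes overlapped fully, and with it the log2 fold change of -0.38 had a wide interval, from -0.96 to 0.20 (adjusted p = 0.263).

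The 2 enzymes that make GABA had fitted changes of opposite sign in RGCs, and neither passed over all libraries. Gad1 (chr2:70553072-70602014, plus strand) had 549, 458 and 520.4 normalised reads in mKO RGCs and 566, 595 and 610.4 in WT RGCs. All mKO libraries were below all WT libraries, but the log2 fold change of -0.22 (interval -0.42 to -0.01) did not pass after adjustment (adjusted p = 0.0890). Gad2 (chr2:22622205-22693874, plus strand) had 857, 874 and 961 in mKO RGCs against 645, 629.6 and 896 in WT RGCs. Only library C of the WT group reached into the mKO range. The log2 fold change of Gad2 was 0.33 with an adjusted p of 0.106 over all libraries, and 0.49 with an adjusted p of 0.000458 without that library. It was also called higher when libraries were scaled by total reads (0.45, adjusted p = 0.0429).

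The horizontal cell factors did not differ between genotypes in RGCs by this test. Prox1 (chr1:190118035-190170714, minus strand) had 1291, 1101 and 1296 normalised reads in mKO RGCs and 953, 1017 and 1265 in WT RGCs. As for Gad2, library C was the WT library that overlapped the mKO group. The log2 fold change was 0.20 (adjusted p = 0.237), and 0.32 without library C (adjusted p = 0.0114). Lhx1 (chr11:84518284-84525535, minus strand) was the least abundant of the 10, with 64, 49 and 62 normalised reads in mKO RGCs and 59, 58 and 68 in WT RGCs. Its log2 fold change of -0.08 had an interval from -0.52 to 0.36 (adjusted p = 0.761), and it turned positive when libraries were scaled by their total reads.

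**Figure D2:**
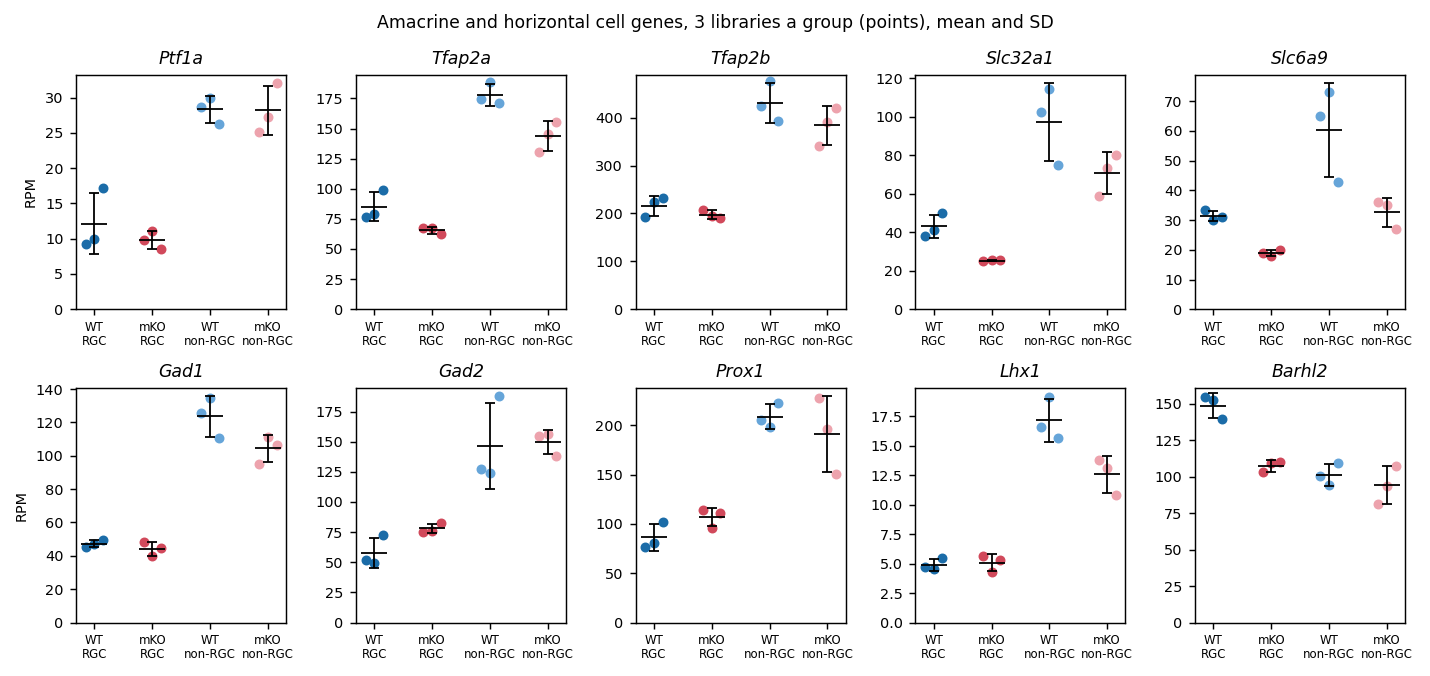
RPM (vertical axes, each from 0) of the 10 genes in the 3 libraries (points, A to C from left to right) of each genotype and fraction, with the mean (long bar) and SD (error bar). Slc32a1 and Slc6a9 were lower in mKO than in WT RGCs with no overlap, and every gene but Barhl2 was higher in non-RGCs than in RGCs.

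In non-RGCs, 2 of the 10 genes were lower in mKO mice, Slc6a9 and Tfap2a, and none was higher. The fitted log2 fold changes of all 10 were below 0, with a median of -0.38 against -0.026 over all 15326 genes tested; that of Gad2 turned to 0.06 when libraries were scaled by total reads. Over all genes, limma called 10.6% in either direction, 6.43% lower and 4.18% higher in mKO non-RGCs. Every mKO library was below every WT library for 6 of the 10 genes, and for 19.2% of all genes tested.

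Slc6a9 had 355, 345 and 271 normalised reads in mKO non-RGCs and 714, 809 and 495 in WT non-RGCs. Library C was the lowest of each group, and the groups did not overlap. The log2 fold change was -1.03 (SE 0.206, adjusted p = 0.0185), a 2.05-fold difference. Without library B of either genotype the adjusted p was 0.0709 (WT) and 0.0723 (mKO). Ccdc24 had 12 to 27 reads in mKO non-RGCs and 16 to 29 in WT non-RGCs, and B4galt2 had 571 to 931 and 1192 to 1271. Tfap2a had 1288, 1432 and 1563 normalised reads in mKO non-RGCs against 1916, 2085 and 1977 in WT non-RGCs. Its log2 fold change of -0.48 (SE 0.117, adjusted p = 0.0325) was close to that in RGCs, with a difference of -0.0063 on the log2 scale. Tfap2a lost its call without library A or B of either genotype, with adjusted p between 0.0643 and 0.143.

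Tfap2b, Slc32a1, Gad1 and Lhx1 did not pass in non-RGCs, although their genotypes did not overlap. Slc32a1 had 582, 724 and 806 normalised reads in mKO non-RGCs and 1122, 1263 and 865 in WT non-RGCs, with a log2 fold change of -0.62 (adjusted p = 0.0553). Its lowest WT library, C, came near the highest mKO library, and without WT library C the fold change was -0.77 (adjusted p = 0.0306). Without library C of the mKO group its adjusted p was 0.0475, also past the threshold. Lhx1 had 136, 129 and 109 against 182, 212 and 181, with a log2 fold change of -0.62 (interval -1.05 to -0.19, adjusted p = 0.0681). Gad1 had 942, 1099 and 1072 against 1378, 1491 and 1277 (log2 fold change -0.41, adjusted p = 0.0616). Tfap2b had 3366, 3867 and 4235 against 4648, 5262 and 4560 (log2 fold change -0.34, adjusted p = 0.0908). Over all libraries, the adjusted p of these 4 genes ran from 0.0553 to 0.0908 (limma).

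Ptf1a, Gad2, Prox1 and Barhl2 overlapped between the genotypes in non-RGCs. Ptf1a had 249, 269.5 and 323 normalised reads in mKO non-RGCs and 315, 332 and 304 in WT non-RGCs (log2 fold change -0.18, adjusted p = 0.486). Gad2 had 1533, 1544 and 1392 against 1396, 1372 and 2171 (-0.11, adjusted p = 0.700), with WT library C far above the rest. Prox1 had 2249, 1934 and 1522 against 2248, 2194 and 2581, and was lowest in the shallowest mKO library (-0.31, adjusted p = 0.198). Barhl2 had 803, 923 and 1080.3 against 1102, 1043 and 1264 (-0.29, interval -0.61 to 0.04, adjusted p = 0.221).

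A test of the difference itself asked whether the change between genotypes was unlike in the 2 fractions. It called 0 of the 10 genes and 0.0969% of 16517 genes (limma), and limma with voom weights also called 0 of the 10. At an unadjusted p under 0.05 it passed 1 of the 10 and 1596 of all genes tested. That gene was Prox1, with a difference (RGCs minus non-RGCs) of 0.51 on the log2 scale (limma, adjusted p = 0.485). For Barhl2, which passed only in RGCs, the difference was -0.31 with an interval from -0.66 to 0.04. For Slc32a1 it was -0.26 (-0.74 to 0.22), and for Slc6a9 0.18 (-0.35 to 0.70). For Lhx1 it was 0.54 (-0.02 to 1.10).

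The base composition of a gene moved with its change in both fractions. Over 15185 genes in RGCs, the log2 fold change fell with exon GC content (Spearman rho -0.65, a description across genes), from a median of 0.42 in the 20% of genes with the lowest GC content to -0.43 in the 20% with the highest. In non-RGCs the rho was -0.44 over 14497 genes, and the medians were 0.23 and -0.33. The 4 genes called with the largest change in RGCs were all above the median exon GC content of 50.3%: Slc32a1 had 61.9%, higher than 98.2% of genes tested, Slc6a9 56.7%, Barhl2 54.3% and Tfap2a 54.0%. Gad2 and Prox1, the 2 genes with fitted values above 0 in RGCs, had 44.8% and 48.6%. Ptf1a had 56.7%, Lhx1 54.7%, Tfap2b 49.8% and Gad1 49.8%. With each library's GC trend removed, 2 of the 10 genes were lower in mKO RGCs, against 10.4% of all genes: Slc6a9 (log2 fold change -0.52, adjusted p = 0.0148) and Barhl2 (-0.37, adjusted p = 0.0184). Slc32a1 went from -0.88 to -0.28 (adjusted p = 0.124), and Tfap2a to -0.28 (adjusted p = 0.0870). Gad2 went from 0.33 to 0.09 (limma, adjusted p = 0.717), and was at 0.14 with both trends removed (adjusted p = 0.609). With the trend in reads per base of exon removed as well, only Slc6a9 of the 10 was called in RGCs (-0.63, adjusted p = 0.0214), against 3.53% of all genes lower, and Barhl2 was at -0.14 (adjusted p = 0.249). In non-RGCs 0 of the 10 were called lower after either removal, against 0.862% and 0.973% of all genes, with Slc6a9 at -0.80 (adjusted p = 0.0752) and -0.84 (adjusted p = 0.0594). Slc32a1 went there from -0.62 to -0.12 (limma, adjusted p = 0.658) and -0.10 (adjusted p = 0.721). Without the GC trend, Gad1, Tfap2b and Lhx1 had an adjusted p of 0.1095, 0.157 and 0.196 in non-RGCs (limma). At an unadjusted p under 0.05, 6 of the 10 genes passed in non-RGCs after removal of the GC trend, against 23.2% of all genes, and 4 after removal of both, against 22.6%. In RGCs the counts were also 6, against 30.2%, and 4, against 22.8%.

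**Figure D3:**
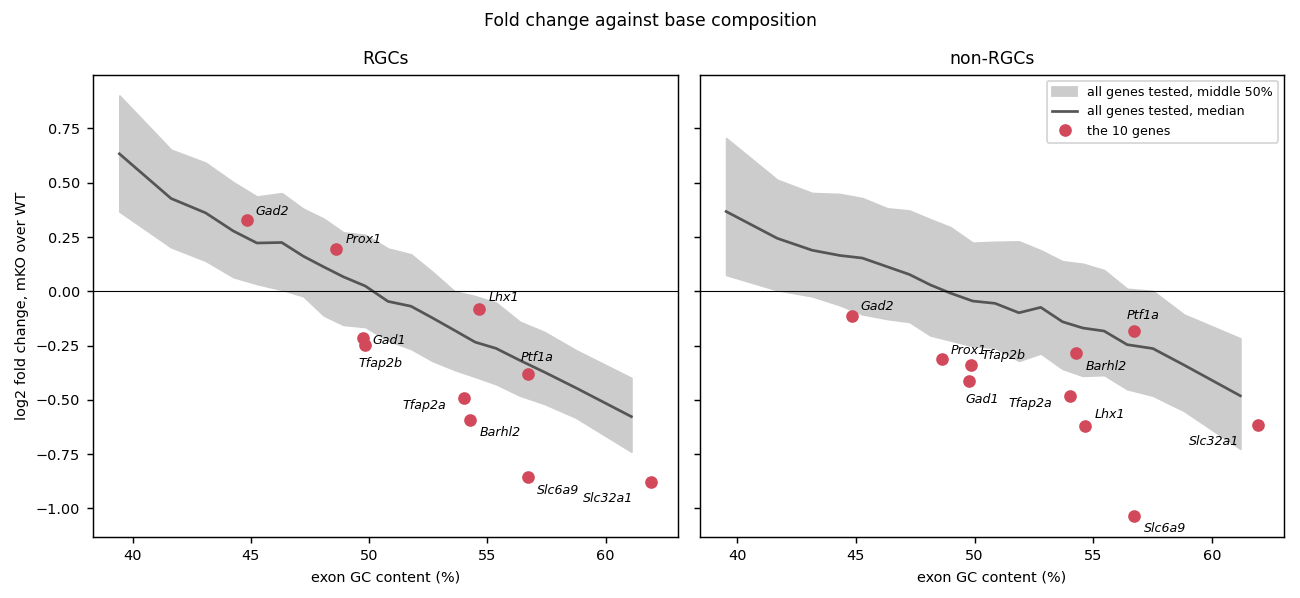
Log2 fold change of mKO over WT (vertical axis) against exon GC content in percent (horizontal axis) in RGCs and non-RGCs, with the median (line) and middle 50% of all genes tested (band) in 20 bins and the 10 genes as points. Slc6a9, Tfap2a, Tfap2b and Gad1 lay below the band in both fractions, while Ptf1a lay within it in both.

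**Figure D4:**
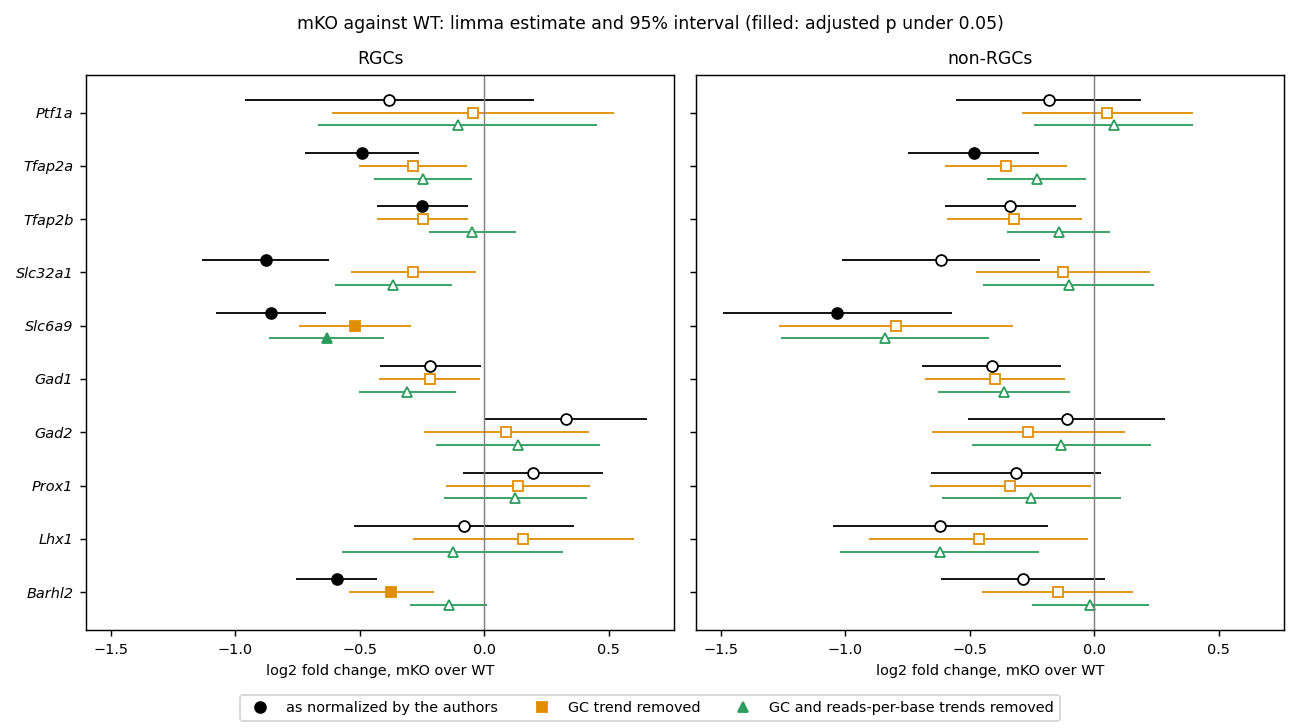
Log2 fold change of mKO over WT (horizontal axis) with its 95% interval for the 10 genes in RGCs and non-RGCs, as normalised by the authors (circles), after removal of the GC trend (squares) and of the trends in GC content and reads per base (triangles), filled where the adjusted p was under 0.05. In RGCs 5 genes were called as normalised, 2 without the GC trend and 1 without both trends.

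Levels were compared between fractions in RPM and without a test, since the 2 tables were normalised separately. In WT mice 9 of the 10 genes were higher in every non-RGC library than in every RGC library, by 1.92-fold for Slc6a9 to 3.50-fold for Lhx1. Tfap2a was at 76.9, 79.3 and 98.9 RPM in WT RGCs and at 175, 188 and 171 in WT non-RGCs. The same 9 genes were higher in non-RGCs of mKO mice, by 1.73-fold for Slc6a9 to 2.87-fold for Ptf1a. Barhl2 was the exception. It was higher in WT RGCs, with 154, 153 and 139 RPM against 100.4, 94.3 and 109 in WT non-RGCs, a 1.47-fold difference. In mKO mice the fractions overlapped for Barhl2, with 103, 109 and 109.8 in RGCs and 81.2, 93.5 and 107 in non-RGCs. The 10 genes together were thus present in both fractions, at a summed 682 to 798 RPM in WT RGCs and 1354 to 1452 in WT non-RGCs. They summed to 642 to 674 in mKO RGCs and 1164 to 1243 in mKO non-RGCs.

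In RPM per kilobase of exon, Barhl2 was the most abundant of the 10 in WT RGCs (64.3 ± 3.59, SD, n = 3), followed by Tfap2b (34.1 ± 3.25). Tfap2a (17.3 ± 2.46) and Slc32a1 (15.4 ± 2.16) overlapped each other, and so did each neighbouring pair from Prox1 (10.3 ± 1.67) through Gad2 (9.86 ± 2.15), Ptf1a (8.06 ± 2.89) and Gad1 (6.18 ± 0.268) to Slc6a9 (6.10 ± 0.333). Lhx1 was the lowest (1.20 ± 0.122). In WT non-RGCs the order at the top was reversed, with Tfap2b (68.0 ± 6.52) above Barhl2 (43.8 ± 3.24). Lhx1 (4.21 ± 0.442) was again the lowest and Slc6a9 (11.7 ± 3.06) the next, both clear of their neighbours. In mKO RGCs Slc32a1 (9.04 ± 0.153) stood below Gad2 (13.3 ± 0.644) and Prox1 (12.8 ± 1.13), with no overlap, whereas in WT RGCs it stood above both. These levels still hold the GC trend, and Slc32a1 had the highest exon GC content of the 10 (61.9%), Gad2 (44.8%) and Prox1 (48.6%) the lowest. With that trend removed, their log2 fold changes in RGCs were -0.28, 0.09 and 0.13, and limma called none of them.

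Other genes of the same cells were looked up in 3 lists, whose counts are to be read against all genes tested: 21.2% were lower and 16.3% higher in mKO RGCs, and 6.43% and 4.18% in mKO non-RGCs. With the GC trend removed these shares were 10.4% and 3.48% in RGCs and 0.862% and 0.807% in non-RGCs, and without either trend 3.53% and 1.26%, and 0.973% and 0.552%. Of 26 other amacrine and horizontal cell transcription factors, all tested in RGCs, 6 were lower and 2 higher in mKO RGCs. Of 25 tested in non-RGCs, 2 were lower and 1 higher. Removal of the GC trend gave 7 lower and 2 higher in RGCs, and removal of both trends 2 and 1, while in non-RGCs either gave 1 and 1. Onecut2, a factor of horizontal cells and RGCs, rose most in RGCs: it had 1219, 1181 and 1548 normalised reads in mKO against 522, 529.8 and 364 in WT (log2 fold change 1.49, adjusted p = 0.00105). It stayed past the threshold with both trends removed (1.01, adjusted p = 0.0344). Neurod6, a factor of an amacrine subset, was also higher in mKO RGCs, with 55.0, 74.7 and 58.3 against 23.3, 27.1 and 28.0 (1.22, adjusted p = 0.00479), and was at 0.59 with both trends removed (adjusted p = 0.180). Onecut1, needed in horizontal cells, was lower in mKO non-RGCs, with 72.4, 63.3 and 41.0 against 139.8, 144 and 269.0 (-1.60, adjusted p = 0.0185). Without the GC trend it was at -1.61 (adjusted p = 0.0419).

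Prdm13, an amacrine factor downstream of Ptf1a, was lower in both fractions. It had 745, 725 and 736 normalised reads in mKO RGCs against 1007, 948 and 1568 in WT RGCs (log2 fold change -0.64, adjusted p = 0.0292). In mKO non-RGCs it had 1607, 1422 and 1552 against 2308, 2204 and 2760.0 (-0.66, adjusted p = 0.0150). With the GC trend removed it was at -0.11 in RGCs and -0.23 in non-RGCs, and did not pass in either. Ebf1, a factor of RGCs and amacrine cells, was higher in mKO non-RGCs, with 381, 469 and 425 against 89.3, 102 and 114 (2.06, adjusted p = 0.00319). RGCs held far more of it, 3129 to 3602 normalised reads in WT.

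Of 19 other genes for making, moving and breaking down GABA and glycine, 8 were lower and 2 higher in mKO RGCs, and 5 were lower and 0 higher in mKO non-RGCs. Removal of the GC trend left 7 lower and 0 higher in RGCs and 3 lower in non-RGCs, and removal of both trends left 1 lower in each. Slc6a11 (GAT3), a GABA transporter, was at -0.56 in mKO RGCs (limma, adjusted p = 0.00208) and at -0.71 in mKO non-RGCs (adjusted p = 0.0159). Without the GC trend it was at -0.34 in RGCs (adjusted p = 0.0408) and at -0.57 in non-RGCs (adjusted p = 0.0657). With both trends removed it did not pass in either fraction. Slc12a5 (KCC2), which keeps chloride low so that GABA can inhibit, was at -0.60 in RGCs (adjusted p = 0.0349) and at -0.75 in non-RGCs (adjusted p = 0.0210), but did not pass in either with the GC trend removed. Shmt2, which makes glycine from serine in mitochondria, was lower in mKO RGCs (-0.59, adjusted p = 0.0330) and was at -0.19 without the GC trend (adjusted p = 0.479).

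Of 24 subtype genes, 21 were tested in RGCs, where 5 were lower and 4 higher, and 18 in non-RGCs, where 0 were lower and 2 higher. In RGCs 3 lower and 0 higher were left without the GC trend, and 1 and 0 without both, while in non-RGCs 1 higher was left after either removal. Vip, a peptide of an amacrine subset, was higher in mKO RGCs (log2 fold change 1.94, adjusted p = 0.0208), on only 7 to 18 reads in mKO libraries and 1 to 4 in WT libraries. Slc5a7, the choline transporter of starburst amacrine cells, had 147, 152 and 143 normalised reads against 81.1, 77.1 and 45.5 (1.15, adjusted p = 0.00907). Calb1, the calcium-binding protein calbindin of horizontal cells and some amacrine cells and RGCs, was at 0.79 (adjusted p = 0.0128). The peptide gene Npy was at -0.78 (adjusted p = 0.0231). None of these 4 passed in RGCs with the GC trend removed. In non-RGCs, Slc18a2, the vesicular monoamine transporter, had 369, 287 and 259.8 against 108, 121 and 81.3 (1.55, adjusted p = 0.00709). It stayed past the threshold with both trends removed (1.20, adjusted p = 0.0272). Elavl4, an RNA-binding protein of RGCs and amacrine cells, was also higher there (0.86, adjusted p = 0.0354), but was at 0.50 (adjusted p = 0.221) without the GC trend and at 0.52 (adjusted p = 0.200) without both. In RGCs Elavl4 was called higher as normalised (0.23, adjusted p = 0.0221) and lower without the GC trend (-0.34, adjusted p = 0.0201), and was at 0.0831 without both (adjusted p = 0.473). Both were more abundant in WT RGCs, at 1528 to 1961 normalised reads for Slc18a2 and 2165 to 2405 for Elavl4.

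Markers of other cells were counted too, and their counts are to be read against all genes tested. Of these, 21.2% were lower and 16.3% higher in mKO RGCs, and 6.43% and 4.18% in mKO non-RGCs. At an unadjusted p under 0.05, limma passed 7658 of 16085 genes in RGCs and 4580 of 15326 in non-RGCs. With both trends removed, 3.53% were lower and 1.26% higher in RGCs, and 0.973% and 0.552% in non-RGCs. Of 12 RGC markers, 10 were lower and 1 higher in mKO RGCs, where they summed to 1951 to 2012 RPM against 2503 to 2644 in WT. In non-RGCs 8 of the 12 were higher in mKO mice, and they summed to 550.2 to 748 against 465 to 489. Of 6 blood cell markers tested, 5 were higher in mKO mice in each fraction, at a sum of 24.8 to 30.7 against 10.2 to 11.98 in RGCs and 57.8 to 86.6 against 12.7 to 20.1 in non-RGCs. Of 12 photoreceptor markers, 5 were lower in each fraction, at a sum of 605 to 656 against 672 to 970 in RGCs and 1139 to 1326 against 1287 to 1580 in non-RGCs. Of 10 progenitor markers, 4 were lower in mKO RGCs (1138 to 1249.8 against 1097 to 1812) and 1 in mKO non-RGCs (1975 to 2362 against 2321 to 2652). Of 7 astrocyte and Müller cell markers tested, 2 were lower in RGCs and 1 in non-RGCs. Of 8 endothelial and pericyte markers, 1 was lower in RGCs and 0 were called in non-RGCs by limma (3 at an unadjusted p under 0.05, and 1 after adjustment with voom weights). Of the bipolar cell markers, 1 of 5 was higher in RGCs and 1 of 4 in non-RGCs. Of the microglia markers, limma called 0 of 8 in RGCs (4 at an unadjusted p under 0.05, and 1 after adjustment with voom weights) and 0 of 5 in non-RGCs (0 unadjusted, and 0 with voom weights). With only the GC trend removed, 9 RGC, 1 photoreceptor, 1 progenitor and 1 astrocyte or Müller cell marker were lower in mKO RGCs (10.4% of all genes). Higher there were 5 blood and 1 bipolar cell marker (3.48%). In non-RGCs 5 RGC, 5 blood and 1 bipolar cell marker were higher (0.807%), and 1 photoreceptor marker was lower (0.862%). With both trends removed, 2 RGC, 1 photoreceptor, 0 progenitor and 0 astrocyte and Müller cell markers were lower in mKO RGCs and 4 blood cell markers were higher. In non-RGCs 5 RGC, 5 blood and 1 bipolar cell marker were then higher, 1 astrocyte or Müller cell marker was lower, and 0 photoreceptor and 0 progenitor markers were called. The part of these cells in the values of the 10 genes was not tested.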

How the data were processed

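RNA-seq of CD90-captured RGCs and of the remaining cells was analysed in 12 libraries, 3 per genotype and fraction, grouped by their labels. Alignment of the single-end reads by the authors used STAR 2.3.1z4 and mm10, counting used featureCounts and normalisation DESeq; all libraries were sequenced together, and table names in the labels say primary alignments with duplicates removed. The signal values deposited by the authors are counts divided by size factors, averaged over the 3 libraries of a group. The deposited overall mean, fold changes and p-values of the authors' own comparison were not used.

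Because such a mean adds up 3 read counts, each times a fixed step, the reads of each library were recovered from its 15 printed digits; 100% of genes with reads had exactly 1 solution, and 0 of 1000 shifted values per group had any. In simulated data 5000 of 5000 genes per group came back exactly. Recovered libraries carry no replicate number. Reads on genes were 7139633 to 13014004 per library. A count of 3 reads or fewer is treated as a floor, which covers counting error only.

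limma 3.58.1 (R 4.3.3) with a mean-variance trend was run on log2(value + 1), which understates changes of low genes, over genes with a group mean of at least 10, within each table, and over all libraries for the difference between fractions, with Benjamini-Hochberg adjustment over all genes tested. An exact permutation test of 3 against 3 cannot give a p below 0.1 and was not used. On simulated libraries of 15868 genes (RGCs), 36 of 50 genes changed 1.5-fold and 50 of 50 changed 2-fold were recovered with 9 false calls. Of 15125 genes (non-RGCs), 40 and 50 of 50 were recovered with 8 false calls. The simulated counts had a fixed spread shared by all genes, no GC trend and no library that stood apart. These figures therefore do not give the error rates of the real libraries. Exon lengths, GC content and positions came from GENCODE M21 on GRCm38 by gene symbol, with GC content known for 94.4% (RGCs) and 94.6% (non-RGCs) of genes tested. Trends were removed per library by lowess on GC content (span 0.3) or by the mean of 300 genes nearest in GC content and reads per base. Alternatives were pseudocount, filter, scaling, voom weights, trend removal, thresholds and leaving out each library. Scripts ran in Python 3.11.15 (scipy 1.17.1, statsmodels 0.14.6, numpy 2.4.6, pandas 2.3.3).

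Named were the 10 genes, Thy1 and Ezh2 as checks, and in each list on amacrine and horizontal cells or on GABA and glycine up to 6 genes called with a fold change of at least 1.5. Some genes that this rule or the lists cover are not reported here by name. Ccdc24, B4galt2 and Gm14205 were named after their values were seen. The 10 genes and all lists were chosen with earlier results of these data known.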

Additional observations from a re-analysis of the deposited data

Results flagged for a closer look

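The change between genotypes differed between the fractions, by the test of the difference over all 12 libraries (limma), for Ebf1 and Thy1. For Ebf1 the log2 fold change in RGCs minus that in non-RGCs was -1.86 (adjusted p = 0.000539), with values of 0.19 in RGCs and 2.06 in non-RGCs. For Thy1 it was -4.60 (adjusted p = 0.00100), with values of -0.73 in RGCs and 3.86 in non-RGCs.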

How the results depend on the processing

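In RGCs, 5 of the 10 genes were called, and the count moved to 2 with the GC trend removed, to 1 with the trends in GC content and reads per base removed, and to 3 under the thresholds of unadjusted p and 1.5-fold change (Slc32a1, Slc6a9 and Barhl2). Leaving out 1 library gave 4 to 7, the 7 without library C of WT RGCs, where Gad2 and Prox1 were added. The share of all genes called without that library is not reported here, so the 7 stands without its background. In non-RGCs, 2 genes were called, and the count moved to 0 with either trend removal to 1 when scaled by total reads, to 3 with voom weights (Slc32a1 added) and to 3 under the other thresholds (Slc32a1, Slc6a9 and Lhx1). Leaving out 1 library gave 0 to 3, with 0 without library B of either genotype and 1 without library A of either. For the difference between fractions the count was 0 under every alternative run. Slc6a9 was called in RGCs under 13 of 13 alternatives, at -0.91 to -0.52, Barhl2 under 12 of 13, Slc32a1 and Tfap2a under 11 of 13 and Tfap2b under 5 of 13. In non-RGCs Slc6a9 was called under 9 of 13 and Tfap2a under 6 of 13. Gad2 was called higher in RGCs under 2 of 13, without library C of WT RGCs and by total reads. The cause of the GC trend was not tested.

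Scaling by total reads shifted the median gene by 0.12 in RGCs and 0.17 in non-RGCs (log2), and turned the calls over all genes from 3405 lower and 2622 higher to 2240 and 3846 in RGCs, and from 985 and 641 to 447 and 1329 in non-RGCs. Removal of the GC trend left 1584 lower and 528 higher in RGCs and 125 and 117 in non-RGCs, and removal of both trends 536 and 191, and 141 and 80. The thresholds of unadjusted p and 1.5-fold change gave 1001 and 1614 in RGCs and 1040 and 1362 in non-RGCs. Leaving out 1 library changed these counts by over 1.5 times too, down to 2343 lower and 1427 higher in RGCs (without library C of mKO RGCs) and to 93 and 48 in non-RGCs (without library B of mKO non-RGCs). For the difference between fractions, 16 lower and 0 higher became 47 and 190 without library A of mKO non-RGCs. Of 450 alternative values for the 10 genes, most were for results with no call to lose. The 5 genes called in RGCs and the 2 called in non-RGCs had 13 values each, and all 24 lost calls were among these. Of the 450, 405 kept direction and call, 24 lost and 6 gained the call, and 15 changed sign, none of them a called value. The latter were Lhx1 in RGCs (0.16 without the GC trend, 0.0408 by total reads, and -0.148 to 0.0393 over left-out libraries, positive without library B of mKO RGCs), Ptf1a in non-RGCs (0.0771 without both trends, 0.0512 without the GC trend) and Gad2 in non-RGCs (0.0596 by total reads, and -0.23 to 0.10 over left-out libraries, positive without library C of WT non-RGCs). In the difference between fractions they were Ptf1a (-0.37 to 0.0712 over left-out libraries, positive without library C of WT RGCs) and Tfap2a (0.0770 without both trends, 0.0615 without the GC trend, 0.0067 with voom weights, and -0.0781 to 0.0990 over left-out libraries, positive without library C of WT RGCs, library A of WT non-RGCs, library C of mKO RGCs or library C of mKO non-RGCs). For the other named genes, over the 20 comparisons in which they were called, 195 of 259 values kept direction and call, 63 lost the call and 1 changed sign, Elavl4 in RGCs (-0.34 without the GC trend, and 0.18 to 0.26 over left-out libraries).

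No paired analysis was possible because the recovered libraries carry no replicate number.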
